A study of Rattus norvegicus with 19 samples.

Results

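The genes of glutamate and GABA receptors were followed by total RNA-seq in rat neurons grown in culture, together with the transcriptionally active putative enhancers (TAPEs) around them. A TAPE is a stretch of open chromatin outside genes that gives RNA from both strands. Members were chosen by symbol: Gria, Grik, Grid, Grin or Grm followed by a digit for glutamate receptors, and Gabra, Gabrb, Gabrg, Gabrd or Gabbr for GABA receptors. This gave 41 of the 17715 gene symbols, namely 4 AMPA, 5 kainate, 2 delta, 7 NMDA and 8 metabotropic glutamate receptor genes, 13 GABA-A receptor genes and 2 GABA-B receptor genes. A TAPE was counted as a neighbour where its deposited distance to the gene's start site was under 200 kb. By this rule 97 of 27538 TAPEs neighboured 30 of the 41 genes in 104 TAPE-gene pairs, of 73636 such pairs in all. The other 11 genes, among them Gabbr2, Gabra5, Gabrg3, Gria4, Grid1, Grin2a, Grm4, Grm5 and Grm7, had no TAPE that close.

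Glutamate opens AMPA, kainate and NMDA receptors, which are tetrameric cation channels, and acts through metabotropic receptors, which couple to G proteins. AMPA receptors carry most fast excitatory current, NMDA receptors admit calcium and need both glutamate and a co-agonist, and kainate receptors act on both sides of the synapse. GABA opens GABA-A receptors, which are pentameric chloride channels, and acts on GABA-B receptors, which couple to G proteins as a pair of Gabbr1 and Gabbr2 products. The subunits a neuron uses differ between brain regions and during development, and depolarization can change their transcription.

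Cultures were made from the cortex, hippocampus or striatum of Sprague-Dawley rats at embryonic day 18, grown for 11 days in vitro and given vehicle (Neurobasal medium) or KCl, which depolarizes neurons, for 1 h. Each of the 3 regions gave a vehicle group and a KCl group. All 6 groups had 3 libraries, except that striatum vehicle had 4. Libraries are named by the numbers in their titles. The title of cortex vehicle 3 names cortex while its tissue label names striatum, and the title was followed. KCl is given as 25 mM with the samples and as 10 mM in the text on the series. The labels do not say that the libraries of a group came from separate litters, so p-values measure the spread between these libraries.

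Library totals, worked out from the deposited TAPE values, were 46.4 to 72.5 M reads. They exceed the reads per sample that the paper states, and what counts as a read in the deposited values is not known. Gene values are reads divided by the library's M reads (RPM), recovered from the deposited correlations for 16564 gene symbols and for 36 of the 41 receptor genes. Those not recovered included Gabra5, Gabrg3 and Grin2d. RPM values are not divided by gene length, so levels are compared between libraries and never between genes. Markers of the labelled regions were compared over all libraries, and those of hippocampus did not mark it. The summed RPM of 6 pallial excitatory neuron markers was 628 to 651 in cortex, 682 to 727 in hippocampus and at most 3.04 in striatum, and that of 9 medium spiny neuron markers was 128 to 137, 57.5 to 65.7 and 659 to 762. The 3 recovered of 4 hippocampal markers summed to 194.5 to 207 RPM in hippocampus, 153 to 215 in cortex and 509 to 563 in striatum. Cortex vehicle 3 is part of these cortical ranges, so lying inside them is no separate check of it. Its pallial sum was at least 628 RPM, against at most 3.04 in striatum. Its medium spiny neuron sum was at most 137 RPM, against at least 659 in striatum. Markers of other cells differed between regions as well: 5 astrocyte markers summed to 830 to 991 RPM in cortex, 1649 to 1738 in hippocampus and 202 to 228 in striatum, 7 interneuron markers to 294 to 357, 344 to 390 and 2774 to 3186, and 5 oligodendrocyte lineage markers to 434 to 454, 330 to 399 and 151 to 180. The interneuron list includes Gad1, Gad2, Dlx1 and Dlx2, which are not particular to interneurons, so its sum is not a measure of their number. Microglia markers were near 0 in every library. The part of these cell types in the regional differences below was not tested, and in bulk cultures fewer cells of a type and less RNA per cell cannot be told apart.

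Region of origin separated most receptor genes. An exact permutation test of library profiles, two-sided, called 26 of the 36 recovered genes between cortex and hippocampus at an adjusted p under 0.05 (42.0% of all recovered genes were called), 29 between cortex and striatum (53.7% of all) and 29 between hippocampus and striatum (60.9% of all). The smallest p that these tests allow is 0.00216 for the first and 0.000583 for the others. limma on log2(RPM + 0.1), which gives fold changes, was run on the 34 genes with a mean of at least 0.5 RPM. It left out Gabra6, the alpha subunit best known from cerebellar granule cells, with a mean of 0.14 RPM, and Grin3b with 0.145 RPM. It called region dependence for 33 of 34 receptor genes, against 89.8% of all tested genes. Cortex and hippocampus differed for 28 (65.9% of all tested genes), cortex and striatum for 30 (75.9%) and hippocampus and striatum for 29 (80.6%). Grik5 was the exception, at 200 ± 10.6 RPM in cortex (SD, n = 6), 210 ± 11.1 in hippocampus (n = 6) and 210 ± 6.83 in striatum (n = 7).

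The 34 tested receptor genes were sorted by the region in which they were highest or lowest. By this rule no gene can be highest in more than 1 region, and the share of all tested genes is given beside each count. Past both pairwise limma tests, 8 genes were higher in cortex than in both other regions (among them Gabra3, Gabrg1, Grid1, Grin3a, Grm2, Grm7 and Grm8, where 14.3% of all tested genes met this rule). Another 8 were highest in hippocampus (among them Gabbr1, Gabbr2, Gabra2, Gria1, Grik4, Grin2a and Grm5, 21.6% of all), and 9 in striatum (among them Gabra4, Gabrb2, Gria2, Gria4, Grik1, Grik3, Grin2c and Grm4, 30.5% of all). In the other direction, 7 genes were lowest in cortex (Gabra4, Gria1, Gria2, Gria3, Grik1, Grin1 and Grm4, 13.1% of all), 9 in hippocampus (among them Gabrb2, Gabrd, Gria4, Grid1, Grik3, Grin2c, Grm3 and Grm8, 22.1% of all) and 13 in striatum (among them Gabbr1, Gabbr2, Gabra3, Gabrb1, Grik2, Grik4, Grin2a, Grin2b, Grm2, Grm5, Grm6 and Grm7, 28.9% of all). All of these differences passed limma at an adjusted p under 0.05 over the 12012 genes tested. The permutation test did not call Grid1 between cortex and striatum (adjusted p = 0.156). Nor did it call Gria2 (0.113) or Gabrd (0.0506) between cortex and hippocampus. The limma calls of these differences were lost in 3, 6 and 3 of the fits that leave out 1 library.

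**Figure D1:**
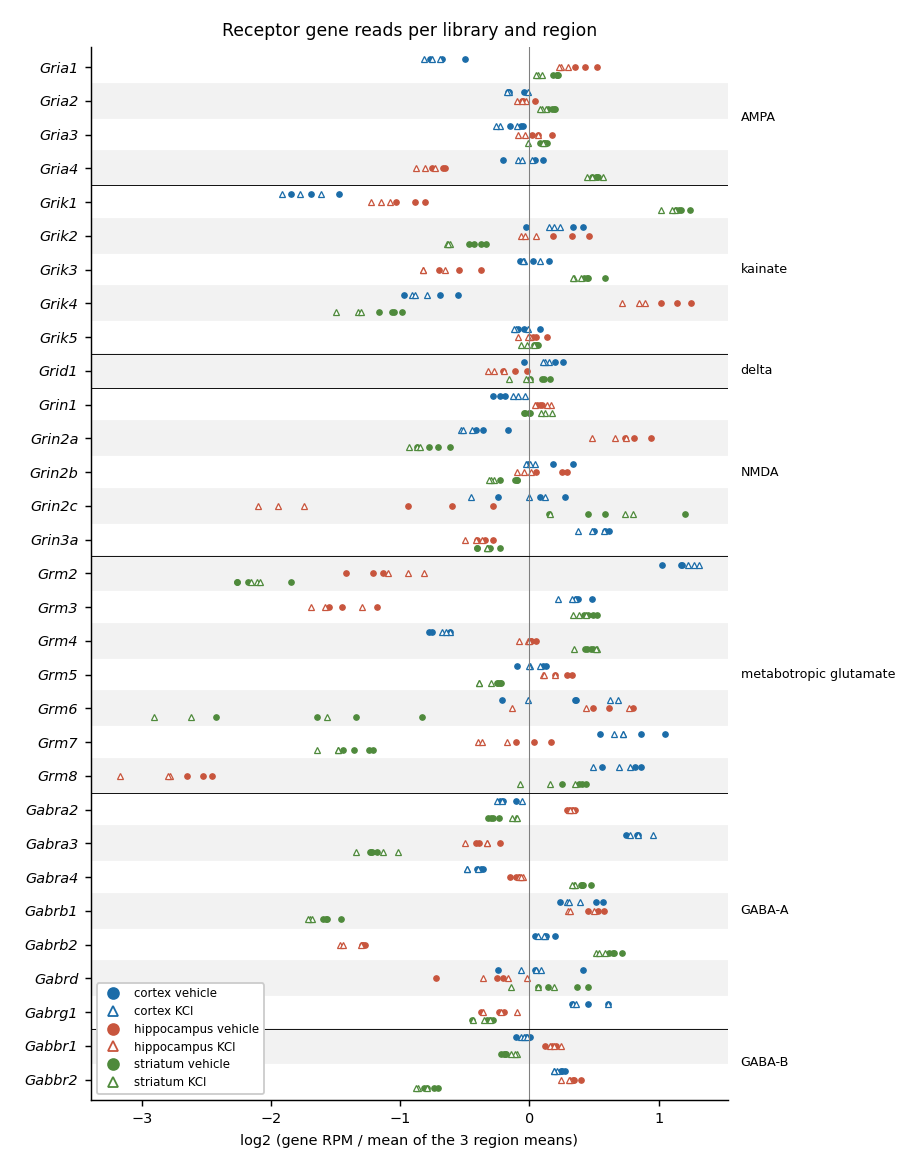
Level of 31 of the 34 tested receptor genes in every library, as the log2 of its RPM over the mean of the 3 region means. Each point is 1 library, colours mark the region, and genes are grouped by receptor class. Grm8 and Grm3 sit far to the left in hippocampus, Grik1 to the right in striatum, and the points of Grik5 overlap.

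AMPA receptor genes differed in which region was lowest. Gria1, whose product is the activity-regulated GluA1 subunit, ran from 166 to 207 RPM in cortex (median 177), from 342 to 421 in hippocampus (median 366) and from 303 to 341 in striatum (median 332). The cortical libraries were all below the others, with a log2 difference of -1.05 from hippocampus (SE 0.0363, adjusted p = 2.77e-18, limma). Gria4 was highest in striatum, at 196 ± 5.50 RPM (SD, n = 7) against 135 ± 10.0 in cortex (n = 6) and 82.1 ± 4.75 in hippocampus (n = 6). Gria2, whose edited subunit limits calcium entry, moved less, from 759 ± 39.3 in cortex to 910 ± 28.9 in striatum.

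Kainate receptor genes had opposite leaders, Grik1 in striatum and Grik4 in hippocampus. Grik1 lay between 14.1 and 19.1 RPM in cortex (median 16.01), between 22.7 and 30.3 in hippocampus (median 25.5) and between 108 and 126 in striatum (median 117). The striatal range lay far above the other ranges, a difference of 2.84 on the log2 scale from cortex (SE 0.0542, adjusted p = 5.99e-24, limma, 7.16-fold). Grik4, which encodes a high-affinity subunit that works only in assemblies with other kainate subunits, went the other way. Its vehicle libraries had 33.4, 27.6 and 36.7 RPM in cortex, 109, 128 and 119 in hippocampus, and 26.0, 27.2, 24.1 and 25.8 in striatum, and its KCl libraries had 28.7, 29.3 and 31.2, then 100.2, 88.6 and 97.1, then 21.5, 21.9 and 19.2. No hippocampal library overlapped another region, and hippocampus exceeded striatum by 2.19 on the log2 scale (SE 0.0554, adjusted p = 1.12e-21, limma, 4.58-fold). Grik3 was highest in striatum at 130 ± 7.71 RPM (SD, n = 7). Cortical libraries had 97.7 ± 6.08 and hippocampal ones 61.7 ± 7.63 (n = 6 each). Grik2 was lower in striatum, at 186 ± 16.4 RPM, than in cortex at 306 ± 32.2 or hippocampus at 294 ± 43.9. The promoters of Grik4 and Grik3, whose TAPEs are described below, differed in base composition. These are the RefSeq sequences from 250 bases before to 50 bases after the annotated start, read 5′ to 3′ on the gene's strand in the GRCr8 assembly. Capitals mark GC boxes (GGGCGG on either strand). The Grik4 window has 44.0% G and C, and the Grik3 window 82.3%.
Grik4, chr8:52102014-52102313, minus strand: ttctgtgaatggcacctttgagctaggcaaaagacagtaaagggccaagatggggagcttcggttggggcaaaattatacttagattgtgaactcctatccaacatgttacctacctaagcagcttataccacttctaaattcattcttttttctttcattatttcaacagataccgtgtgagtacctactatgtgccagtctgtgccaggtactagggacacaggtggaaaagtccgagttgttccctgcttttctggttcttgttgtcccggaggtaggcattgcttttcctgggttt
Grik3, chr5:143052192-143052491, plus strand: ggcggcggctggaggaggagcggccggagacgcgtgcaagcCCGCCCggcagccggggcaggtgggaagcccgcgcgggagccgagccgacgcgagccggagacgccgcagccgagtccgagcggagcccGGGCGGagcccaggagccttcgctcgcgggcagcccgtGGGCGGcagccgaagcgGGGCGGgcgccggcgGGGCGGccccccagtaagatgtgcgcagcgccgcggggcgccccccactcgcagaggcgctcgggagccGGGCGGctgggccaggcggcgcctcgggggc
The Grik3 window held 6 GC boxes and the Grik4 window none of the motifs searched.

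Among NMDA receptor genes, Grin2a was highest in hippocampus and Grin2b lowest in striatum. Grin2a, the GluN2A gene that rises as synapses mature, ran from 58.5 to 80.2 RPM in hippocampus (median 70.0), from 28.9 to 37.2 in cortex (median 31.0) and from 21.8 to 27.3 in striatum (median 23.2). Hippocampus did not overlap the others and stood 1.13 above cortex on the log2 scale, as the cortex-minus-hippocampus difference of -1.13 shows (SE 0.052, adjusted p = 8.45e-16, limma). Grin2b, the subunit gene of young synapses, was at 429 ± 44.6 RPM in cortex, 425 ± 47.0 in hippocampus and 349 ± 24.1 in striatum. Cortex and hippocampus did not differ beyond their spread (log2 difference 0.01, SE 0.0446, adjusted p = 0.82, limma). Grin3a was at 44.5 ± 2.69 RPM in cortex (SD, n = 6), against 23.7 ± 1.18 in hippocampus (n = 6) and 24.6 ± 1.06 in striatum (n = 7). Grin1, the obligatory subunit, was lowest in cortex at 227 ± 14.5 RPM, with 271 ± 8.50 in hippocampus and 261 ± 15.6 in striatum.

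The largest log2 differences between regions among the 34 tested genes were those of the metabotropic receptor genes Grm8 and Grm2. Grm8, a group III autoreceptor gene, stayed between 2.50 and 4.10 RPM in hippocampus (median 3.43), against 31.7 to 40.9 in cortex (median 37.6) and 21.4 to 30.5 in striatum (median 28.7). The 6 hippocampal libraries lay below every other library, 3.39 below cortex on the log2 scale (SE 0.0767, adjusted p = 4.42e-22, limma, 10.5-fold). Grm2, a group II receptor gene, ran from 24.0 to 29.3 RPM in cortex (median 27.2), from 4.40 to 6.70 in hippocampus (median 5.45) and from 2.45 to 3.27 in striatum (median 2.64). Cortex exceeded striatum by 3.28 on the log2 scale (SE 0.0734, adjusted p = 1.56e-22, limma). Grm3, the other group II gene, which astrocytes also express, was at 89.8 ± 5.26 RPM in cortex and 94.9 ± 4.07 in striatum but 25.7 ± 3.46 in hippocampus. The group I gene Grm5 was highest in hippocampus (231 ± 14.9 RPM against 206 ± 12.1 in cortex and 164 ± 8.28 in striatum). Grm7 fell from cortex (199 ± 25.2 RPM) through hippocampus (107 ± 16.5) to striatum (44.1 ± 4.59). Grm4 rose along the same order from 6.98 ± 0.338 through 11.2 ± 0.327 to 15.4 ± 0.637 RPM. Grm6, best known from retinal bipolar cells, was low throughout, at 1.43 ± 0.335, 1.64 ± 0.345 and 0.34 ± 0.173 RPM.

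GABA-A receptor subunit genes split within the alpha and beta families. Among the alpha subunits, Gabra3 was at 38.3 ± 1.89 RPM in cortex (SD, n = 6), 16.7 ± 1.08 in hippocampus (n = 6) and 9.41 ± 0.667 in striatum (n = 7), whereas Gabra4 rose in that order (61.1 ± 2.26, 76.8 ± 1.797 and 107 ± 3.91). Gabra2 had its highest level in hippocampus (303 ± 4.78 against 215 ± 11.7 in cortex and 210 ± 14.04 in striatum). The beta subunits were opposed: Gabrb1 was low in striatum (36.2 ± 2.31 RPM, against 145 ± 13.4 and 151 ± 11.8), and Gabrb2 was low in hippocampus (33.3 ± 1.97, against 91.3 ± 3.46 in cortex and 129 ± 6.31 in striatum). The beta subunit contrasts with limma were 2.004 on the log2 scale for Gabrb1 between cortex and striatum (SE 0.0447, adjusted p = 1.45e-22) and -1.94 for Gabrb2 between hippocampus and striatum (SE 0.0323, adjusted p = 2.13e-25). Gabrg1, which glia also express, was highest in cortex (40.9 ± 3.78 against 25.2 ± 1.84 and 23.4 ± 1.010). Gabrd, whose product sits in extrasynaptic receptors, was at 2.81 ± 0.436, 2.23 ± 0.347 and 3.03 ± 0.421 RPM.

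Both subunit genes of the GABA-B receptor were lowest in striatum, by unequal amounts. Gabbr2 was at 270 ± 6.73 RPM in cortex, 290 ± 10.2 in hippocampus and 133 ± 5.68 in striatum, a cortex-minus-striatum difference of 1.03 on the log2 scale (SE 0.0248, adjusted p = 6.49e-22, limma). Gabbr1 differed by 0.11 (SE 0.023, adjusted p = 9.50e-05), at 759 ± 19.8, 887 ± 25.0 and 699 ± 23.0 RPM.

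Some receptor genes had nearly the same profile across the 19 libraries. As a description over libraries that share region and depth, Pearson's r of gene RPM was 0.993 for Grik4 with Grin2a, both highest in hippocampus. Gabbr2 and Gabrb1 had 0.988, Gabra3 and Grm2 with 0.985, and Gria4 and Grik3 with 0.979. These values largely restate which region was highest or lowest.

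Depolarization for 1 h moved receptor genes by small amounts, mostly downward. Averaged over the 3 regions, limma called 19 of the 34 tested receptor genes (34.0% of all tested genes), with Grin1 and Grm2 higher and 17 lower (24.3% of all tested genes were lower). The exact permutation test stratified by region called 13 of 36 (21.0% of all recovered genes, smallest possible p 7.14e-05), with Grin1 and Grm2 again higher and the rest lower. The median change was -0.09 on the log2 scale for the receptor genes and -0.04 for all tested genes. With KCl the library medians themselves moved by -0.02 (cortex), -0.04 (hippocampus) and -0.08 (striatum). With each library centred on its median, limma called 12 receptor genes over all regions, 4 higher and 8 lower. Some marker sums did not overlap between vehicle and KCl. Medium spiny neuron markers in striatum summed to 659 to 672 RPM in vehicle and 722 to 762 in KCl, the hippocampal list in cortex to 153 to 176 and 208 to 215, astrocyte markers in cortex to 830 to 848 and 870 to 991, and interneuron markers in striatum to 2774 to 2846 and 3068 to 3186. Interneuron markers in hippocampus (344 to 368 RPM in vehicle and 376 to 390 in KCl) and pallial markers in cortex (628 to 647 and 648 to 651) were also higher in KCl. The hippocampal list in striatum was lower in KCl, at 509 to 532 RPM against 534 to 563 in vehicle. The part of these markers in the KCl differences was not tested.

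All 5 kainate receptor genes were lower with KCl in the average over regions by limma, of which Grik2 and Grik4 also passed with centred libraries and Grik1, Grik3 and Grik5 did not (adjusted p = 0.0801, 0.0891 and 0.265, limma). In the permutation test Grik1, Grik4 and Grik5 passed, and Grik3 did not (adjusted p = 0.063). Grik2 passed there at the edge (adjusted p = 0.0497), a call kept in 3 of 20 other settings and left-out libraries. Grik4 fell by 0.25 on the log2 scale (SE 0.0457, adjusted p = 0.000166, limma), Grik2 by 0.21 (SE 0.0425, adjusted p = 0.000589), Grik1 by 0.14 (SE 0.0447), Grik3 by 0.13 (SE 0.0387) and Grik5 by 0.08 (SE 0.0248). The hippocampus held most of the calls within a region: Grik1, Grik2, Grik3 and Grik4 passed there. Of 24 other settings and left-out libraries, Grik2 passed in 24, Grik4 in 22, Grik3 in 17 and Grik1 in 8. Grik3 was lost without hippocampus vehicle 2 or 3 or hippocampus KCl 2 or 3 (adjusted p between 0.0694 and 0.256). Grik1 was lost without any of these (0.1004 to 0.231), without cortex vehicle 1 or cortex KCl 2, or without any 1 striatal library (0.0535 to 0.0588). With the replicate block the adjusted p was 0.235 for Grik1 and 0.154 for Grik3. Hippocampal Grik2 went from 297, 361 and 329 RPM in vehicle to 272, 250 and 255 in KCl, and Grik4 from 109, 128 and 119 to 100.2, 88.6 and 97.1. The groups did not overlap, and the differences were -0.34 for Grik2 (SE 0.0752, adjusted p = 0.00342) and -0.32 for Grik4 (SE 0.0809, adjusted p = 0.00979). Grik4 was also lower in striatum, by 0.31 (SE 0.0757, adjusted p = 0.00567). Its hippocampal call was lost without hippocampus vehicle 2 (adjusted p = 0.0828) or hippocampus KCl 2 (0.0748) and its striatal call without striatum KCl 7 (0.0527).

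Of the other channel genes, Gria1 fell by 0.14 averaged over regions (SE 0.029, adjusted p = 0.000548, limma), with 373, 421 and 394 RPM in hippocampus vehicle against 359, 346 and 342 in KCl. Grin2b fell by 0.19 (SE 0.0357, adjusted p = 0.000254) and Grin2a by 0.17 (SE 0.0416, adjusted p = 0.00216), while Grin1, their obligatory partner, moved the other way. Grin1 had 216, 222 and 208 RPM in cortex vehicle against 247, 238 and 231 in KCl, and 247, 246, 253 and 253 in striatum vehicle against 286, 276 and 269 in KCl. The groups did not overlap in cortex or striatum, with differences of 0.15 in each (SE 0.0379, adjusted p = 0.0109 in cortex, and SE 0.0354, adjusted p = 0.00427 in striatum). In hippocampus Grin1 had 268, 271 and 264 against 283, 261 and 278, which overlapped (difference 0.03, SE 0.0379, adjusted p = 0.637). The cortical call of Grin1 was lost without cortex vehicle 3 (adjusted p = 0.0584) or cortex KCl 1 (0.0511). Grin2c, a subunit gene of cerebellum and glia, went from 1.06, 0.672 and 0.852 RPM in hippocampus vehicle to 0.385, 0.3 and 0.333 in KCl, a difference of -1.11 (SE 0.241, adjusted p = 0.00295) at low levels. The promoter of Grin1, the one ion channel gene called higher in the average, is shown because the calcium-responsive factor CREB is known to bind the half-site TGACG. Capitals mark this half-site and the GC box, on either strand.
Grin1, chr3:28528705-28529004, minus strand of GRCr8, RefSeq: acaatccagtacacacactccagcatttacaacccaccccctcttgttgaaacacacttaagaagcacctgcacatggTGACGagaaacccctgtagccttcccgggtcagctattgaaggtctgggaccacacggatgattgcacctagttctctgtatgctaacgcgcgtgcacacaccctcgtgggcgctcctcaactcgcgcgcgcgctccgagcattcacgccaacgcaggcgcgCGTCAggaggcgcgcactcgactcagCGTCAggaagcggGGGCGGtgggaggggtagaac
It held 3 half-sites and 1 GC box, with 59.7% G and C. A promoter sequence was at hand for 25 of the 41 receptor genes. The half-site was in 3 of these 25, those of Grin1, Gabbr2 and Grik2, and in 21.2% of 33469 rat promoters of the same length. Unlike Grin1, Gabbr2 and Grik2 were called lower with KCl in the average over regions (limma). The full site TGACGTCA was in none of the 25 (1.83% of all promoters), and the AP-1 site TGANTCA in none (7.33%). GC boxes were in 10 (40.0% against 33.1%) and TATAAA in 1 (4.0% against 14.2%). The full site contains the half-site, and both strands were searched for each motif. The median G and C content was 59.7% in the 25 windows and 51.7% in all.

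Among metabotropic genes, Grm7 fell by 0.23 (SE 0.0511, adjusted p = 0.00123, limma), Grm8 by 0.22 (SE 0.0613, adjusted p = 0.00608) and Grm5 by 0.09 (SE 0.028, adjusted p = 0.0124). Grm2 rose by 0.16 (SE 0.0606, adjusted p = 0.0487), a call at the edge of the threshold that was lost in 16 of the fits that leave out 1 library, with adjusted p between 0.0522 and 0.111. Its libraries had 26.6, 26.7 and 24.0 RPM in cortex vehicle against 28.6, 29.3 and 27.7 in KCl, and 5.09, 5.37 and 4.40 in hippocampus vehicle against 6.70, 6.14 and 5.53 in KCl. Of the GABA receptor genes, 3 were lower. Gabrb1 fell by 0.13 (SE 0.0369, adjusted p = 0.00623), Gabrb2 by 0.09 (SE 0.0267, adjusted p = 0.0152) and Gabbr2 by 0.07 (SE 0.0205, adjusted p = 0.00915). In the permutation test Grm7 (adjusted p = 0.109), Grm8 (0.187), Grm5 (0.0759) and Gabrb1 (0.124) did not pass. Grm2 (0.0271), Gabrb2 (0.0416) and Gabbr2 (0.0048) passed there, and the call of Gabrb2 was kept in 8 of 20 other settings and left-out libraries. With centred libraries in limma, Grm5 (adjusted p = 0.207), Gabrb1 (0.0572), Gabrb2 (0.336) and Gabbr2 (0.37) did not pass. In striatum Gabra2 rose from 198, 199, 206 and 194 RPM to 225, 227 and 221 (difference 0.17, SE 0.0401, adjusted p = 0.0036). The difference of its KCl effect between regions did not pass, but did with centred libraries (adjusted p = 0.021) or without cortex KCl 1 (0.00942).

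By region, limma called 1 receptor gene in cortex (Grin1, with 9.11% of all tested genes called), 9 in hippocampus (12.3% of all), all lower (8.01% of all were lower), and 5 in striatum (20.2% of all), of which Gria1, Grik2 and Grik4 were lower (14.3% of all were lower) and Grin1 and Gabra2 higher. The F-test of a KCl effect that differs between regions called none of the 34 (4.01% of all tested genes, with 4 of 34 at an unadjusted p under 0.05), so a call in 1 region and not in another does not show a difference. With each library centred on its median, the split was 1 higher and 6 lower in hippocampus and 3 higher and 1 lower in striatum. Of 23 other settings and left-out libraries, the striatal call held in 8 for Gria1 and in 16 for Grik2. It held in 22 for Grik4 and in 23 for Grin1 and Gabra2. The hippocampal call of Gria1 held in 17 of 24. The counts also moved with single libraries. The cortical count became 7 without cortex vehicle 2 and 0 without cortex vehicle 3 or cortex KCl 1. The hippocampal count became 2 without hippocampus vehicle 2, 3 without hippocampus KCl 2, 4 without hippocampus vehicle 3 and 5 without hippocampus KCl 3. The striatal count became 10 without cortex vehicle 2, 9 without cortex vehicle 3, 8 without cortex KCl 1, 3 without striatum vehicle 4 or striatum KCl 1, and 2 without striatum KCl 7. The permutation count over all regions became 7 without cortex vehicle 3 or cortex KCl 2.

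**Figure D2:**
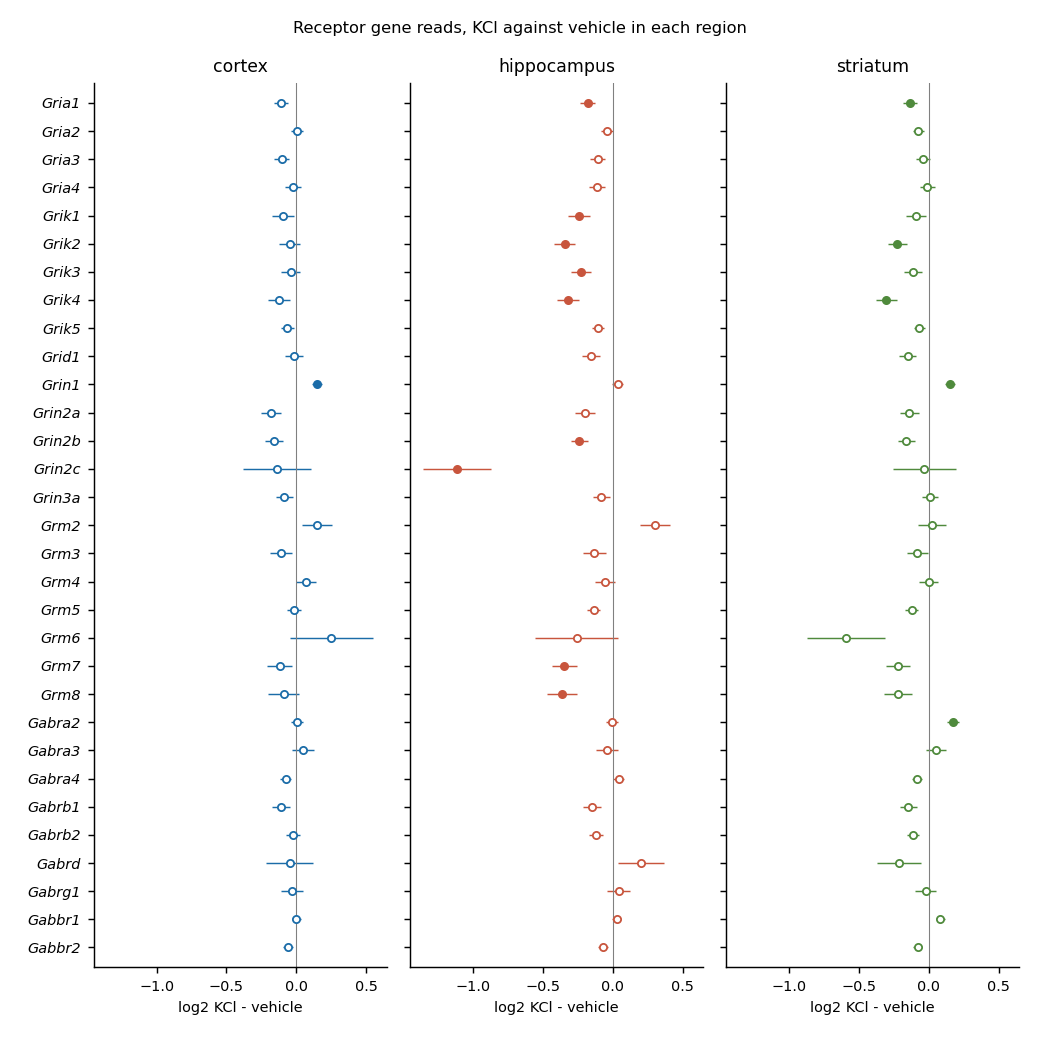
Log2 difference of 31 tested receptor genes between KCl and vehicle libraries in cortex, hippocampus and striatum, with SE from limma. Filled points have an adjusted p under 0.05, which holds for 1 gene in cortex, 9 in hippocampus and 5 in striatum. Most points lie left of 0, and Grin1 lies right of it in each panel.

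Most receptor genes that fell were long. The distance from the 5′ to the 3′ end in Rn6 had a median of 288 kb for the 17 receptor genes called lower, 87.1 kb for the 15 not called and 20.4 kb for the 2 called higher. Over all tested genes the share called lower rose with span, from 12.7% under 10 kb through 23.5%, 28.1% and 36.8% to 56.2% over 300 kb. For receptor genes it was 58.3% (7 of 12) between 100 and 300 kb and 80.0% (8 of 10) above. Single libraries also differed by gene span within a group: genes over 300 kb stood at -0.14 in cortex vehicle 2 and at 0.12 in cortex vehicle 3 relative to their group mean on the log2 scale. By region that share ran from 2.25% under 10 kb to 37.1% over 300 kb in hippocampus and from 8.02% to 20.1% in striatum, and in cortex it was 1.55% and 2.12%, with at most 3.67% between. The part of gene span in the KCl differences was not tested.

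**Figure D3:**
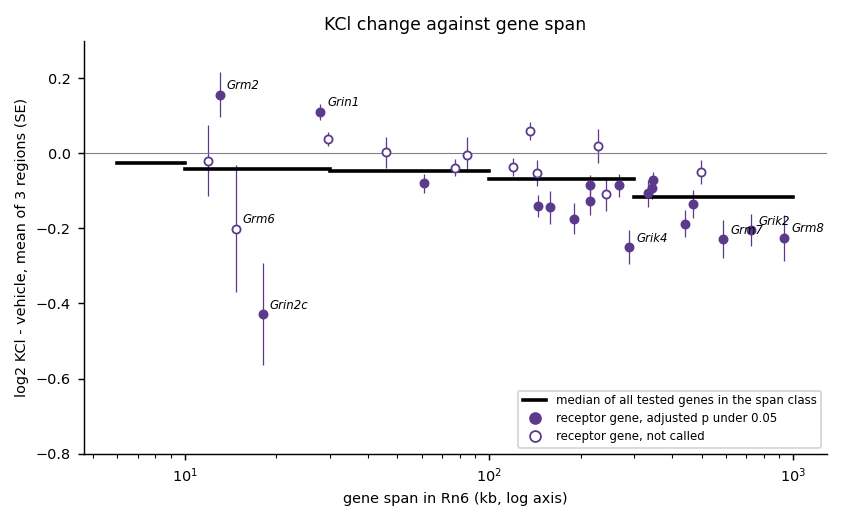
Mean KCl change of 31 tested receptor genes (log2, with SE) against its span in Rn6 on a log axis. Black bars give the median of all tested genes in each of 5 span classes, from -0.03 under 10 kb to -0.12 over 300 kb, and filled points are receptor genes with an adjusted p under 0.05. Grin1 and Grm2, the genes called higher, span 27.8 and 13 kb.

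The RNA of neighbouring TAPEs was sparse. The 97 TAPEs held between 3 and 924 reads summed over 19 libraries, with a median of 18, so only the 15 with a mean of at least 0.05 CPKM (reads per kb of TAPE and per M library reads, the deposited unit) were tested, of 1870 tested in all. None of the 15 overlaps a receptor gene. limma on log2(CPKM + 0.05) called region dependence for 9 of the 15 (48.8% of all tested TAPEs). Of the 9, 3 had a mean of at least 0.05 CPKM in 1 region alone, so that the filter itself favoured a difference there. Between cortex and hippocampus 2 differed (14.9% of all), between cortex and striatum 5 (33.3%) and between hippocampus and striatum 9 (43.0%). With reads summed over all TAPEs around a gene, 8 of 11 tested loci depended on region (42.3% of all tested loci). Among the 8, the Grik3 locus passed the filter of 0.1 RPM through striatum alone, so that the filter favoured a difference there. It had 0.397 to 0.556 RPM in striatum, 0 to 0.149 in cortex and 0 to 0.0333 in hippocampus.

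Tested TAPEs near the kainate receptor genes Grik4 and Grik3 had unequal levels in the 3 regions. Upstream of Grik4, the TAPE at chr8:47235112-47238553 (Rn6, 142.5 kb from the start site, with Grik4 as the nearest gene) had the highest mean CPKM of all 97. It measured 0.121, 0.112 and 0.147 CPKM in cortex vehicle, 0.478, 0.731 and 0.658 in hippocampus vehicle and 0.128, 0.105, 0.0802 and 0.0351 in striatum vehicle. The KCl libraries had 0.15, 0.21 and 0.0722 in cortex, 0.427, 0.4 and 0.528 in hippocampus and 0.0933, 0.0536 and 0.134 in striatum. Every hippocampal library was above every other library, as for the Grik4 gene, and hippocampus exceeded striatum by 2.09 on the log2 scale (SE 0.213, adjusted p = 2.24e-09). The other TAPEs upstream of Grik4 were also highest in hippocampus by their means. The one at chr8:47171880-47174322 had a hippocampal mean of 0.118 ± 0.0552 CPKM (SD, n = 6), a cortical mean of 0.0788 ± 0.0416 (n = 6) and a striatal mean of 0.0286 ± 0.0308 (n = 7), and the one at chr8:47189213-47191808 had 0.166 ± 0.047, 0.116 ± 0.0616 and 0.0694 ± 0.0281. Both differed between hippocampus and striatum (adjusted p = 0.000906 and 0.0044, limma).

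Upstream of Grik3, the TAPE at chr5:143426007-143427534 (73.7 kb) was read in striatum and hardly elsewhere. It had 0.127, 0.0791, 0.136 and 0.136 CPKM in striatum vehicle and 0.136, 0.133 and 0.238 in striatum KCl, 0 to 0.0389 in the 6 cortical libraries, and 0 in all 6 hippocampal libraries. Striatum and the other regions did not overlap, but the TAPE passed the filter on low values through striatum alone, so its levels are given with no test. The neighbours of Gria2, downstream at chr2:179547032-179548665 (156.8 kb) and chr2:179549668-179550889 (154.4 kb), also had their highest means in striatum, at 0.211 ± 0.0671 and 0.193 ± 0.0978 CPKM (SD, n = 7). Cortical means were 0.0462 ± 0.0264 and 0.0669 ± 0.0526, and hippocampal means 0.048 ± 0.0394 and 0.0619 ± 0.062 (n = 6 each). The first also passed the filter through striatum alone and is given with no test. The other differed between cortex and striatum by -1.08 (SE 0.341, adjusted p = 0.0134, limma), a call lost without cortex vehicle 1 (adjusted p = 0.0544).

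Other receptor loci had TAPEs that stand nearer to another gene. The TAPE at chr20:1997759-1999968 lies 14 kb upstream of Gabbr1 but 5189 bp from Mog, a myelin gene. It was higher in striatum (0.174 ± 0.0505 CPKM, n = 7) than in cortex (0.0881 ± 0.0414, n = 6) or hippocampus (0.0553 ± 0.0195, n = 6), opposite to Gabbr1 itself. The TAPE at chr5:172817735-172820120, 9.6 kb upstream of Gabrd and nearest to Cfap74, was highest in hippocampus (0.116 ± 0.0295 CPKM against 0.0434 ± 0.0243 in cortex and 0.0426 ± 0.0268 in striatum), where Gabrd was lowest, and it passed the filter through hippocampus alone. The TAPE at chr7:12930645-12932780 near Grin3b differed between hippocampus and striatum (0.101 ± 0.0584 and 0.0254 ± 0.0201 CPKM, adjusted p = 0.00292, limma). Tested TAPEs near Grin1 (0.108 CPKM over all libraries), Gabrd (0.077 at 163.5 kb), Grik5 (0.0562) and Grin2c (0.0524), did not pass the test of region dependence, nor did the one near Grm6.

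**Figure D4:**
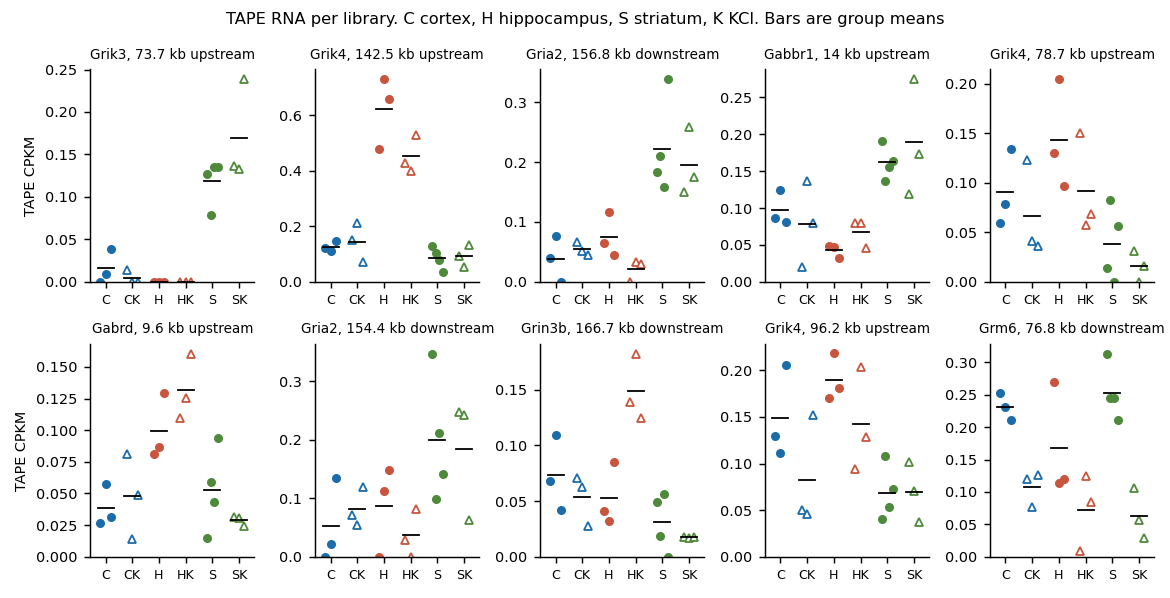
CPKM of 10 tested TAPEs near receptor genes in each library, with group means as bars. Filled circles are vehicle and open triangles KCl, and C, H and S are cortex, hippocampus and striatum (K marks KCl). The Grik4 TAPE at 142.5 kb is high in hippocampus, the Grik3 TAPE is at 0 there, and the Grm6 TAPE is lower in KCl in each region by its group means.

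KCl changed 1 of the 15 tested TAPEs, and it fell. The TAPE at chr10:36421794-36423763 lies 76.8 kb downstream of Grm6 and 2852 bp from Znf354b, a zinc finger gene. It had 0.252, 0.231 and 0.211 CPKM in cortex vehicle against 0.12, 0.0769 and 0.126 in KCl, 0.269, 0.114 and 0.119 in hippocampus vehicle against 0.00888, 0.125 and 0.0846 in KCl, and 0.313, 0.245, 0.245 and 0.21 in striatum vehicle against 0.105, 0.0562 and 0.0292 in KCl. Vehicle and KCl did not overlap in cortex or striatum and overlapped in hippocampus. The KCl difference common to the regions was -1.09 on the log2 scale (SE 0.195, adjusted p = 0.000741, limma), where 6.84% of all tested TAPEs were called and 5.19% were lower. With the replicate number as a block it was -0.87 and did not pass (adjusted p = 0.107). Within striatum it was -1.46 (SE 0.279, adjusted p = 0.0223), with 1.23% of tested TAPEs called and 0.428% lower. The striatal adjusted p lay between 0.0833 and 0.118 when striatum vehicle 2, 4, 6 or 8 or striatum KCl 5 or 7 was left out. No receptor TAPE was called within cortex (0.321% of all tested TAPEs, with 1 of 15 at an unadjusted p under 0.05), within hippocampus (0.0535% of all, with 2 of 15) or for a KCl effect that differs between regions (0.0535% of all, with 1 of 15). With reads summed over the TAPEs of a gene, 1 of 11 tested loci was called for KCl (11.9% of all tested loci), and it was the Grm6 locus, which holds this 1 TAPE and so adds no second result. Grm6 RNA itself, at 0.34 to 1.64 RPM by region, gave no call (difference -0.2, SE 0.169, adjusted p = 0.388). The Grik4 locus, whose gene fell with KCl, went from 2.40, 3.58 and 2.97 RPM in hippocampus vehicle to 2.08, 2.05 and 2.32 in KCl. These did not overlap, and the KCl difference common to the regions did not pass (-0.23, SE 0.134, adjusted p = 0.251, limma). With KCl the library medians of tested TAPEs moved by -0.07 (cortex), -0.17 (hippocampus) and -0.14 (striatum).

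The deposited correlation of a pair is Pearson's r between TAPE CPKM and gene CPKM over the 19 libraries. Among the 104 receptor pairs 17 exceeded 0.5 (16.3%, against 6.63% of all 73636 pairs within 200 kb) and 4 were below -0.5 (3.85% against 2.15%). The median r was 0.138 for receptor pairs and 0.026 for all. Limited to tested TAPEs, 6 of 15 exceeded 0.5 (40.0% against 14.2%), and limited to 100 kb, 11 of 49 (22.4% against 7.6%). The libraries share region, treatment and depth, and pairs of 1 gene share its profile, so these shares are a description. The TAPE lay upstream in 66 of the 104 pairs, and the receptor gene was its nearest gene in 50, and in 11 of the 17 above 0.5.

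Kainate receptor genes held 9 of the 17, among 19 pairs with a median r of 0.381. Grik4 had r = 0.972 with its TAPE at 142.5 kb, 0.674 with the TAPE at 78.7 kb and 0.669 with the TAPE at 96.2 kb. Within regions the first was 0.909 in hippocampus (6 libraries), -0.083 in cortex (6) and -0.183 in striatum (7). In hippocampus the KCl values of the Grik4 gene all lay below its vehicle values, whereas those of the TAPE overlapped, since KCl 3 at 0.528 CPKM was above vehicle 1 at 0.478. Grik3 exceeded 0.5 with 5 of its 7 TAPEs (0.784, 0.685, 0.63, 0.58 and 0.55), of which 4 were too shallow to test, with 11 to 32 reads each. The TAPE 3.7 kb upstream at chr5:143495966-143497589 gave reads in all 7 striatal libraries and, elsewhere, in cortex vehicle 3 alone. Grik1 had 1 such pair at 195.3 kb (0.568).

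AMPA receptor pairs added Gria2 with both of its downstream TAPEs (0.776 and 0.687). GABA-A receptor pairs added, among others, Gabrb2 with 3 TAPEs (0.542, 0.527 and 0.506), each on 11 to 29 reads. The Gabrb2 TAPEs also neighbour Gabra6, 1 of the cases in which 7 TAPEs were shared between 2 receptor genes of a chromosomal cluster. Metabotropic receptor pairs added Grm2 with 2 (0.704 and 0.562). The first of these, at chr8:115289925-115292598, held 54 reads, all in cortex: 0, 0.0155 and 0.0167 CPKM in vehicle and 0.145, 0.0629 and 0.109 in KCl, with 0 in every hippocampal and striatal library. It was too shallow for the test. No NMDA or GABA-B receptor pair exceeded 0.5. The negative pairs were Gabbr1 with the TAPE 14 kb upstream (-0.663) and with one 5.9 kb upstream (-0.567), Gabrd at 173.9 kb (-0.607) and Grin1 at 154.9 kb (-0.601).

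**Figure D5:**
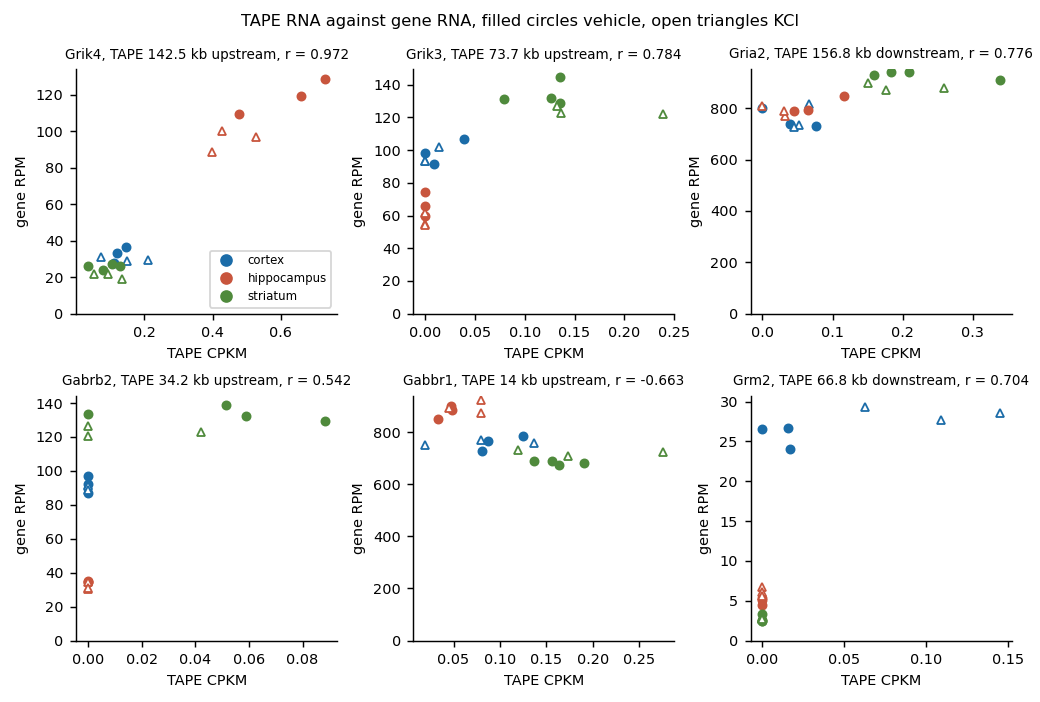
Gene RPM against TAPE CPKM in each library for 6 pairs, with the deposited Pearson r above each panel. Colours mark the region, filled circles vehicle and open triangles KCl. In most panels the points of a region sit together, and within hippocampus the Grik4 pair also rises (r = 0.909).

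Lists of genes that work with the receptors are given as counts beside all tested genes, of which 24.3% were lower and 9.72% higher in the average KCl effect. Of 18 listed auxiliary subunit genes 14 are in the deposited table and 13 were tested, and 7 were called in the average KCl effect, 2 higher and 5 lower. Cacng3, the TARP gamma-3 gene, rose by 0.38 on the log2 scale (SE 0.0573, adjusted p = 1.43e-05, limma) and Neto2, a kainate receptor partner, by 0.14 (SE 0.0223, adjusted p = 2.13e-05). Shisa6, an AMPA receptor partner, fell from 125 ± 14.7 to 89.3 ± 6.73 RPM in hippocampus (SD, n = 3 each), a difference of -0.48 (SE 0.0856, adjusted p = 0.000432). Of 16 tested scaffold and trafficking genes, 1 was higher and 5 lower (Grip1, Grip2, Homer2, Nlgn1 and Pick1). The 1 was Homer1, whose short activity-induced form uncouples group I metabotropic receptors. It rose from 135 ± 11.7 to 485 ± 21.3 RPM in cortex, from 114 ± 7.26 to 227 ± 21.2 in hippocampus (n = 3 each) and from 118 ± 3.53 (n = 4) to 326 ± 12.4 (n = 3) in striatum, a mean of 1.43 on the log2 scale (SE 0.0345, adjusted p = 7.16e-21). Of 13 tested genes of transmitter synthesis and transport, 4 were higher and none lower: the GABA-synthesis genes Gad1 (0.17, SE 0.0238) and Gad2 (0.07, SE 0.0208), the vesicular GABA transporter gene Slc32a1 (0.08, SE 0.0312) and the glial glutamate transporter gene Slc1a3 (0.08, SE 0.0228). The interneuron marker sum that was higher in striatum KCl includes the Gad genes. For comparison, 34.0% of all tested genes were called in this contrast.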

How the data were processed

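Total RNA of 19 rat neuron cultures was sequenced after removal of ribosomal RNA. The authors trimmed, aligned (STAR, Rn6) and counted reads over TAPEs, and deposited them as RPKM, which they call CPKM. The deposited correlations are a score, the Pearson r of TAPE and gene CPKM. Per the labels, Trim Galore 0.4.5 and SAMtools 1.9 were used. How gene reads were counted (exons or gene body, strand) is not given in the sources used here.

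Undoing the division by length and depth turned 100.0% of TAPE values into whole reads (tolerance 0.01). Gene profiles were solved from the deposited correlations for 93.5% of symbols, and the smallest whole reads that match them (tolerance 0.05) gave RPM. These can be a whole-number fraction of the true reads, which leaves fold changes as they are except through the pseudocount. Reads from PCR are not independent molecules.

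limma 3.58.1 in R 4.3.3 fitted log2(CPKM + 0.05) for TAPEs (mean of at least 0.05), log2(RPM + 0.1) for summed loci (at least 0.1) and for genes (at least 0.5), two-sided with Benjamini-Hochberg adjustment over all features tested. A fold change on these scales understates the change of low features. Region, KCl and interaction effects over the regions used all 19 libraries, and the KCl effect on a TAPE within a region used that region's libraries alone. Over the regions, the KCl effect on a gene was the mean of the regional differences. For TAPEs and loci it was a common difference, with region as an additive term. Gene profiles were also compared by exact permutation. The limma test of genes was chosen after seeing that whole reads could be recovered. The scripts were tested on simulated data. Python 3.11.15, numpy 2.4.6, pandas 2.3.3, scipy 1.17.1 and matplotlib 3.10.9 were used.

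The receptor genes and lists were chosen with earlier results of these data known. Named with values were TAPEs called for KCl, the 12 tested TAPEs with the smallest p of region dependence, the highest TAPE of each class, the 10 highest r among tested TAPEs, the genes with the 8 smallest KCl p-values and those called between regions, and called loci. Others named, such as shallow TAPEs, were chosen after their values were seen. Equal replicate numbers were not taken to pair samples. Coordinates are Rn6 unless GRCr8 is named, and TAPE sequences are not printed. Some receptor genes that entered the counts are not reported here by name and are not plotted.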

Additional observations from a re-analysis of the deposited data

Results flagged for a closer look

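In groups of 4 libraries, which here means striatum vehicle, the lowest or the highest library was compared with the others by Dixon's test at the 95% level. Of 62 values tested (36 genes, 15 TAPEs and 11 loci), 5 stood out, and chance alone marks about 1 in 20. Grin2b was at 341.8 RPM in striatum vehicle 6, below the 371.4 to 375.5 of the other libraries. The TAPE 73.7 kb upstream of Grik3 was at 0.0791 CPKM in striatum vehicle 4, against 0.127 to 0.136 in the others. Summed over its TAPEs, the Gabrd locus was at 0.158 RPM in striatum vehicle 2, against 0.415 to 0.449. The Grin3b locus was at 0.0 RPM in striatum vehicle 8, against 0.106 to 0.121, and the Grm2 locus was at 0.0352 RPM in striatum vehicle 2, where the other libraries had 0.0. The loci values rest on few reads.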

How the results depend on the processing

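Leaving out each library in turn, the number of receptor TAPEs called ran from 9 to 10 for region dependence, 2 to 2 for cortex against hippocampus, 4 to 7 for cortex against striatum, 9 to 9 for hippocampus against striatum, 1 to 1 for KCl over all regions and 0 to 1 for KCl in striatum, and was 0 for KCl in cortex, in hippocampus and for the interaction. Loci ran from 7 to 8 for region and 1 to 2 for KCl, and pairs above 0.5 from 14 to 18. Genes with limma ran from 0 to 7 for KCl in cortex, 2 to 12 in hippocampus, 2 to 10 in striatum, 16 to 20 over all regions and 0 to 1 for the interaction, and with the permutation test from 7 to 19 for KCl. Counts of genes between regions stayed within 25 and 31.

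Without a filter on low values, TAPEs called for KCl in striatum became 0, those between hippocampus and striatum 14, and genes called for KCl 5 in hippocampus and 3 in striatum. With a mean CPKM of at least 0.1, TAPE counts became 5 for region dependence, 1 for cortex against hippocampus and 5 for hippocampus against striatum. Within 100 kb they became 5, 1 and 5, with 3 for cortex against striatum, loci with region dependence became 4 and pairs above 0.5 became 11, and pairs of tested TAPEs were 6. With libraries centred on their median, 12 genes were called for KCl over all regions and 1 for the interaction. The cause was not tested. Equal replicate numbers did not mark libraries that deviate together (correlations from -0.21 to 0.09 for genes), and with the replicate block KCl calls became 0 for TAPEs over all regions, 0 for genes in cortex and 4 for genes in hippocampus. No result changed its sign. Of single members, 687 results under other settings kept their call and 40 lost it. When 1 library was left out, 3792 kept their call and 169 lost it.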
